A study of Mus musculus with 18 samples.

Results

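The 81 nuclear-encoded respiratory chain genes were taken from 19938 measured genes by their symbols: the Nduf subunits of complex I, the Sdh genes of complex II, the Uqcr genes of complex III, the Cox4 to Cox8 genes of complex IV and the Atp5 genes of complex V. They comprised 35 genes of complex I, 4 of complex II, 8 of complex III, 17 of complex IV and 17 of complex V, spread over 19 chromosomes. Ndufa4 was counted with complex I by its name, although its protein is now placed in complex IV. Cox7c and Ndufb4 lay only on probe sets with several gene symbols and were not analysed here. The genes were measured in total RNA of end-stage splenic tumours from 18 Eμ-Myc mice, whose transgene places Myc under the enhancer of the immunoglobulin heavy chain, active in B lineage cells. All mice were given as C57BL/6. The tumours of 9 mice were Prdm11 WT and those of 9 other mice were Prdm11 KO, from a cross of the Eμ-Myc strain with a Prdm11 knockout strain, and the comparison asked how expression differed between them. No treatment was given, no age of the mice or design of the knockout allele was stated in the labels, and tumours were frozen and homogenised without a stated sort. A level therefore sums tumour cells and the other cells of the spleen, and fewer cells of a type cannot be told apart from less RNA per cell.

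The respiratory chain sits in the inner mitochondrial membrane. Complexes I and II pass electrons from NADH and succinate to coenzyme Q, complex III passes them on to cytochrome c, and complex IV reduces oxygen. Complexes I, III and IV pump protons, and complex V, the ATP synthase, uses the gradient to make ATP. Most subunits are encoded in the nucleus, translated in the cytosol and imported, whereas a small set of core subunits is encoded by mitochondrial DNA. MYC is known to drive many nuclear genes of mitochondrial biogenesis, and B cell tumours driven by it are growing tissues with a high demand for ATP and for precursors from the citric acid cycle.

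Levels below are log2 RMA intensities, and differences are KO minus WT on that scale. Array medians lay between 5.14 and 5.38. WT tumour 3 had an array that stood apart, since its correlations with the others had a median of 0.924, whereas this median lay between 0.957 and 0.976 for every other array. The Prdm11 probe set ran from 4.84 through a median of 5.33 to 5.66 in WT tumours and from 4.87 through 5.21 to 5.49 in KO tumours, and because its place relative to the deleted part was not given, it does not check the genotype labels. Pan-B markers were present in both genotypes, with a mean level over 13 genes of 6.92 ± 0.28 in WT and 7.28 ± 0.38 in KO tumours (SD, n = 9 each). The 12 measured erythroid markers, which include Klf1, the erythroid master regulator, and Tspo2, all had a difference below 0, against 59.2% of all genes. Their mean was 7.54 ± 0.60 in WT tumours, with a range of 6.96 to 8.77, and 6.93 ± 0.48 in KO tumours, with a range of 6.06 to 7.52 (SD, n = 9 each). The mean level over 15 neutrophil markers ran from 6.02 to 8.32 in WT tumours and from 6.01 to 7.67 in KO tumours. Differences were also below 0 in 15 of 15 neutrophil and 14 of 16 macrophage and monocyte markers. The same held for 11 of 12 T cell and 9 of 10 NK cell markers, whereas 11 of 13 pan-B markers were above 0. None of these lists was tested.

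Respiratory chain genes did not pass the test for a difference between genotypes. Of the 81 genes, 0 reached an adjusted p below 0.05 in limma, and the smallest adjusted p was 0.718, for Cox6a1. Over all genes 1 of 19938 passed, or 0.00502%. At an unadjusted p below 0.05, 4 respiratory chain genes were lower in KO tumours, against 3.87% of all genes, and 0 were higher, against 2.83% of all genes. The 4 were Cox6a1, Cox6b2 and Cox8a of complex IV and Ndufa6 of complex I. The count fell to 0 with each array's median subtracted or without KO tumour 6, and to 2 without any 1 of WT tumours 3, 4, 6, 7, 8 and 9 and KO tumours 1, 4 and 8. A count of 4 in 81 lies near the share over all genes and is not a result about the chain. Differences were below 0 in 53 of the 81 genes (65.4%), against 59.2% of all genes and 47.4% of the genes brighter than the median gene. The median difference was -0.044, against -0.030 over all genes and 0.011 over the brighter genes. The share of 65.4% was 54.3% with each array's median subtracted, 71.6% with quantile normalization, and between 48.1% (without KO tumour 4) and 75.3% (without WT tumour 1, WT tumour 3 or KO tumour 9) when single tumours were left out. In 0 of the 81 genes did the genotypes separate without overlap. The same count was not made over all genes, so it is not a result about the chain.

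**Figure D1:**
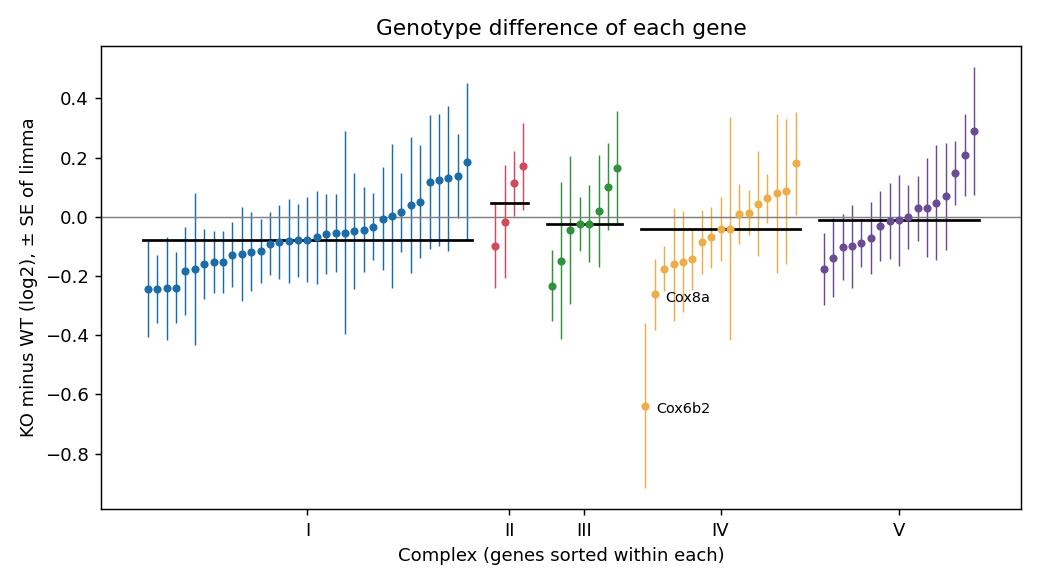
Difference between 9 KO and 9 WT tumours (KO minus WT, log2, vertical axis) for each of the 81 genes, sorted within complexes I to V (horizontal axis). Points are limma estimates, bars are ± 1 SE and black lines are the median of each complex, which run from -0.077 in complex I to 0.048 in complex II. Cox6b2, at -0.64, lies lowest.

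Complex I, the entry point for electrons from NADH, had 26 of 35 genes below 0 and a median difference of -0.077. Of its 6 measured conserved core subunits 3 were above 0 and 3 below, with a median of -0.021. Of 28 accessory subunits 22 were below 0, with a median of -0.078. Over all genes 59.2% were below 0, and over the genes brighter than the median gene 47.4%. None of these sets was tested as a list, nor were the 2 sets compared. Among the core genes, Ndufs1, which carries iron-sulfur clusters, had a difference of 0.14 (SE 0.14, adjusted p = 0.873), and Ndufv1, which holds the NADH binding site, had one of -0.13 (SE 0.16, adjusted p = 0.897). Ndufv2, Ndufs3, Ndufs7 and Ndufs8 lay between -0.12 and 0.052.

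The smallest p in complex I belonged to Ndufa6, an accessory subunit of the LYR family that sits on the matrix arm. Its level ran from 9.42 through a median of 10.13 to 10.43 in WT tumours and from 9.53 through 9.84 to 10.05 in KO tumours. All 9 KO tumours lay below the WT median, although WT tumour 1 lay below every KO tumour. The difference was -0.24 (SE 0.12, adjusted p = 0.739). Ndufv3, a small subunit beside the NADH module, ran from 8.84 through 9.15 to 9.62 in WT tumours and from 8.45 through 8.98 to 9.28 in KO tumours, with 7 of 9 KO tumours below the WT median. Its difference was also -0.24 (SE 0.12, adjusted p = 0.763). Ndufa3, a subunit of the membrane arm, had its 9 KO tumours below the WT median of 10.39, with a difference of -0.24 (SE 0.16, adjusted p = 0.809). Without KO tumour 4, its lowest at 9.03, that difference was -0.12. Ndufs3 lies on chromosome 2, as Prdm11 does, with 36 measured genes between them. Its level was 8.86 ± 0.35 in WT tumours and 8.81 ± 0.24 in KO tumours (SD, n = 9 each).

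Complex II, succinate dehydrogenase, works in both the respiratory chain and the citric acid cycle. It had 2 genes above 0 and 2 below. Sdha, the flavoprotein that oxidises succinate, ran from 7.48 through 7.90 to 8.29 in WT tumours and from 7.66 through 8.02 to 8.31 in KO tumours, and 8 of 9 KO tumours lay above the WT median. The difference was 0.11 (SE 0.11, adjusted p = 0.868). It turned to -0.058 with the pan-B marker mean as a covariate, a setting chosen after the values were seen. Sdhb, the iron-sulfur subunit, had a difference of -0.099 (SE 0.14, adjusted p = 0.913), which turned to 0.079 when arrays were weighted. Of the membrane anchors, Sdhc had a difference of 0.17 (SE 0.15, adjusted p = 0.853) and Sdhd one of -0.017 (SE 0.19, adjusted p = 0.994).

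In complex III, which takes electrons from coenzyme Q to cytochrome c, 3 of 8 genes were above 0 and 5 below. Both large core proteins were among the 3 above: Uqcrc2 had a difference of 0.16 (SE 0.19, adjusted p = 0.890) and Uqcrc1 one of 0.10 (SE 0.15, adjusted p = 0.913). Uqcrfs1, the Rieske iron-sulfur protein that carries the electrons, had one of -0.023 (SE 0.13, adjusted p = 0.986). The smallest p belonged to Uqcrb, which lies near the coenzyme Q pocket. Its level ran from 10.45 through 10.84 to 11.07 in WT tumours and from 9.85 through 10.58 to 10.91 in KO tumours, with 8 of 9 KO tumours below the WT median. The difference was -0.23 (SE 0.12, adjusted p = 0.769).

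Complex IV, cytochrome c oxidase, has its catalytic subunits encoded by mitochondrial DNA, so that its nuclear genes encode the surrounding subunits, several of them as pairs of a widely expressed and a tissue-restricted isoform. It held 3 of the 4 genes at an unadjusted p below 0.05 in limma. These were 3 of its 17 genes, all lower in KO tumours, against 3.87% of all genes. The count of 4 depended on scaling and on single tumours, as given above. Cox6a1, the widely expressed form of subunit 6A, ran from 11.91 through 12.15 to 12.36 in WT tumours and from 11.76 through 11.88 to 12.16 in KO tumours. Of the KO tumours, 8 of 9 lay below the WT median and 5 below every WT tumour. The difference was -0.18 (SE 0.08, adjusted p = 0.718). Cox8a, the widely expressed form of subunit 8, ran from 9.44 through 9.79 to 10.02 in WT tumours and from 9.04 through 9.67 to 9.88 in KO tumours, with 7 of 9 KO tumours below the WT median and 3 below every WT tumour. Its difference was -0.26 (SE 0.12, adjusted p = 0.721).

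Cox6b2, known as the testis form of subunit 6B, had the difference farthest from 0 of the 81 genes. Its level was 9.51 in WT tumour 1, between 7.47 and 8.66 in 7 other WT tumours and 6.93 in WT tumour 3. In KO tumours it ran from 6.68 through 7.71 to 8.17, so that 9 of 9 KO tumours lay below the WT median of 8.28 while the ranges overlapped. The difference was -0.64 (SE 0.28, adjusted p = 0.719). Its level followed the mean of the erythroid markers over the 18 tumours, with a Pearson r of 0.869 and a Spearman rho of 0.808, with 0.731 without the 2 tumours farthest from the erythroid median, and with 0.910 within WT and 0.691 within KO tumours. This relation was picked out among 81 after the values were seen and was given no test. Genotype means were not subtracted for the correlations with the erythroid mean over the 18 tumours. With the erythroid mean as a covariate, a setting also chosen after the values were seen, the difference of Cox6b2 was -0.033 (adjusted p = 0.959). For Cox6a1, whose r with the erythroid mean was 0.636 (0.295 within WT and 0.727 within KO tumours), it was -0.11 (adjusted p = 0.633). For Cox8a, with an r of 0.544, it was -0.15 (adjusted p = 0.669). For Ndufa6, with an r of -0.319, it was -0.44 (adjusted p = 0.198).

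The other tissue-restricted isoforms of complex IV had differences between -0.16 and 0.085. Cox7a1, the heart and muscle form of subunit 7A, was measured at 7.44 ± 0.92 in WT and 7.40 ± 0.86 in KO tumours (SD, n = 9 each), and Cox6a2, the muscle form of subunit 6A, at 6.78 ± 0.65 and 6.86 ± 0.47. Cox4i2, the lung form of subunit 4, and Cox7b2, Cox8b and Cox8c lay below the median gene of the array, as did Ndufa4l2, a hypoxia-inducible relative of Ndufa4. These 5 were the only members below it.

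In complex V, 0 genes passed the threshold, at an adjusted or an unadjusted p. Of the 5 genes of the F1 sector, which makes ATP, 4 had differences above 0, and all 5 small membrane subunits had differences below 0. Over all genes 59.2% were below 0, and neither set was tested. Atp5a1, the alpha subunit of F1, ran from 9.27 through 9.68 to 10.05 in WT tumours and from 9.44 through 9.84 to 10.33 in KO tumours, with 7 of 9 KO tumours above the WT median. The difference was 0.21 (SE 0.14, adjusted p = 0.809). Atp5b, the catalytic beta subunit, had a difference of 0.15 (SE 0.11, adjusted p = 0.820). Atp5d, Atp5e and Atp5c1, which form the central stalk, had differences of 0.069, 0.047 and -0.072. Atp5l, a small subunit at the dimer interface, had one of -0.18 (SE 0.12, adjusted p = 0.813), and its 6 probe sets, which may include copies of the gene, gave differences between -0.21 and -0.16.

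Other genes of the pathway, in lists chosen with earlier results of these data known, also gave 0 genes past the adjusted threshold. Of the 7 measured genes listed beside the name rule, of which Ndufa4l2 and Atp5mpl are also counted above, 6 were below 0. The smallest p among them belonged to Atpif1, the inhibitor of ATP hydrolysis by complex V, at -0.14 (SE 0.07, adjusted p = 0.769), followed by Ndufab1, the mitochondrial acyl carrier protein, at -0.22 (SE 0.13, adjusted p = 0.781). At an unadjusted p below 0.05, 3.87% of all genes were lower and 2.83% higher in KO tumours. At that p, 0 of 16 assembly factors of complex I and 1 of 20 of complex IV differed. The 1 was Cox11, which inserts copper, at -0.25 (SE 0.10, adjusted p = 0.715). Lrpprc, which stabilises mitochondrial mRNAs, had a difference of 0.28 (SE 0.14, adjusted p = 0.763), and Ndufaf3, an assembly factor of complex I, one of -0.24 (SE 0.12, adjusted p = 0.768). The 4 assembly factors of complex II, 6 of complex III and 3 of complex V included 0 at an unadjusted p below 0.05.

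Of 17 regulators 2 were higher in KO tumours at an unadjusted p below 0.05, against 2.83% of all genes. Gabpa, the DNA-binding subunit of the ETS factor GABP, had a difference of 0.36 (SE 0.14, adjusted p = 0.699), and Ppargc1a, the coactivator PGC-1alpha, one of 0.38 (SE 0.16, adjusted p = 0.717) at a level of 4.13 ± 0.28 in WT tumours, below the array medians. Citric acid cycle and pyruvate dehydrogenase genes had 15 of 17 differences above 0 and a median of 0.10, with 1 at an unadjusted p below 0.05: Pdha1, a catalytic subunit of pyruvate dehydrogenase, at 0.26 (SE 0.12, adjusted p = 0.721). Idh3a, of isocitrate dehydrogenase, followed at 0.28 (SE 0.19, adjusted p = 0.810). Of 12 genes of coenzyme Q synthesis and function, Coq10b was lower at -0.28 (SE 0.12, adjusted p = 0.717) and Pdss2 higher at 0.20 (SE 0.09, adjusted p = 0.743), each at an unadjusted p below 0.05. The mitochondrial ribosome, with 30 of 74 genes above 0 and 44 below, had 1 such gene, Mrpl51, at -0.22 (SE 0.10, adjusted p = 0.717). Of all genes 3.87% were lower and 2.83% higher at that unadjusted p, and none of these lists was tested. Of the subunits encoded by mitochondrial DNA, COX2 and ND3 were measured under these names, and their differences were -0.027 and -0.023.

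Levels varied from tumour to tumour within both genotypes. The SD over the 18 tumours had a median of 0.308 over the 81 genes, against 0.255 over all genes and 0.315 over the brighter ones. The range over tumours corresponded to a median of 2.24-fold, exceeded 2-fold in 55 genes and 4-fold in 9. The narrowest was that of Cox6c, a small subunit of complex IV, which ran from 12.40 to 12.78, a 1.30-fold range. The widest was that of Cox7a1, from 5.87 in WT tumour 1 to 8.85 in WT tumour 3, a 7.93-fold range. Next by SD came Ndufa7, an accessory subunit of complex I, which ran from 7.05 in KO tumour 4 to 9.82 in KO tumour 9, a 6.82-fold range. In the other complexes the highest SD belonged to Uqcr10 (0.608, 5.19-fold), Atp5g2 (0.509) and Sdhd (0.425, 2.92-fold), and the lowest to Ndufa1 in complex I (0.220), Sdha (0.228), Uqcrh (0.172) and Atp5j2 (0.147).

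The median SD over the 81 genes was higher among KO tumours, at 0.325, than among WT tumours, at 0.282, whereas over all genes it was 0.239 and 0.263. The SD was higher in KO tumours for 51 of 81 genes, against 8137 of 19938 genes. These values were not tested. With quantile normalization between arrays the KO median was 0.238. The WT median on that scale is not given here, so the order of the genotypes was not compared there.

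The tumours differed in the chain as a whole. Each gene's level was set against its own mean over the 18 tumours, and these deviations were averaged over the 81 genes in each tumour. In WT tumours the averages were -0.28, -0.19, -0.14, 0.077, 0.093, 0.077, 0.12, 0.21 and 0.23 for tumours 1 to 9. In KO tumours they were 0.12, 0.15, -0.25, -0.45, 0.12, -0.30, 0.13, -0.045 and 0.34. The genotypes overlapped, with 0.022 ± 0.18 in WT and -0.022 ± 0.26 in KO tumours (SD, n = 9 each). In each genotype 3 tumours lay at -0.14 or lower, namely WT tumours 1 to 3 and KO tumours 3, 4 and 6. In KO tumour 4, 25 of the 81 genes had their lowest level of the 18 tumours and 6 lay above their own median. In KO tumour 9, 25 had their highest level and 74 lay above their median. WT tumour 3, whose array stood apart, behaved unevenly: 12 genes had their highest level there and 16 their lowest.

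**Figure D2:**
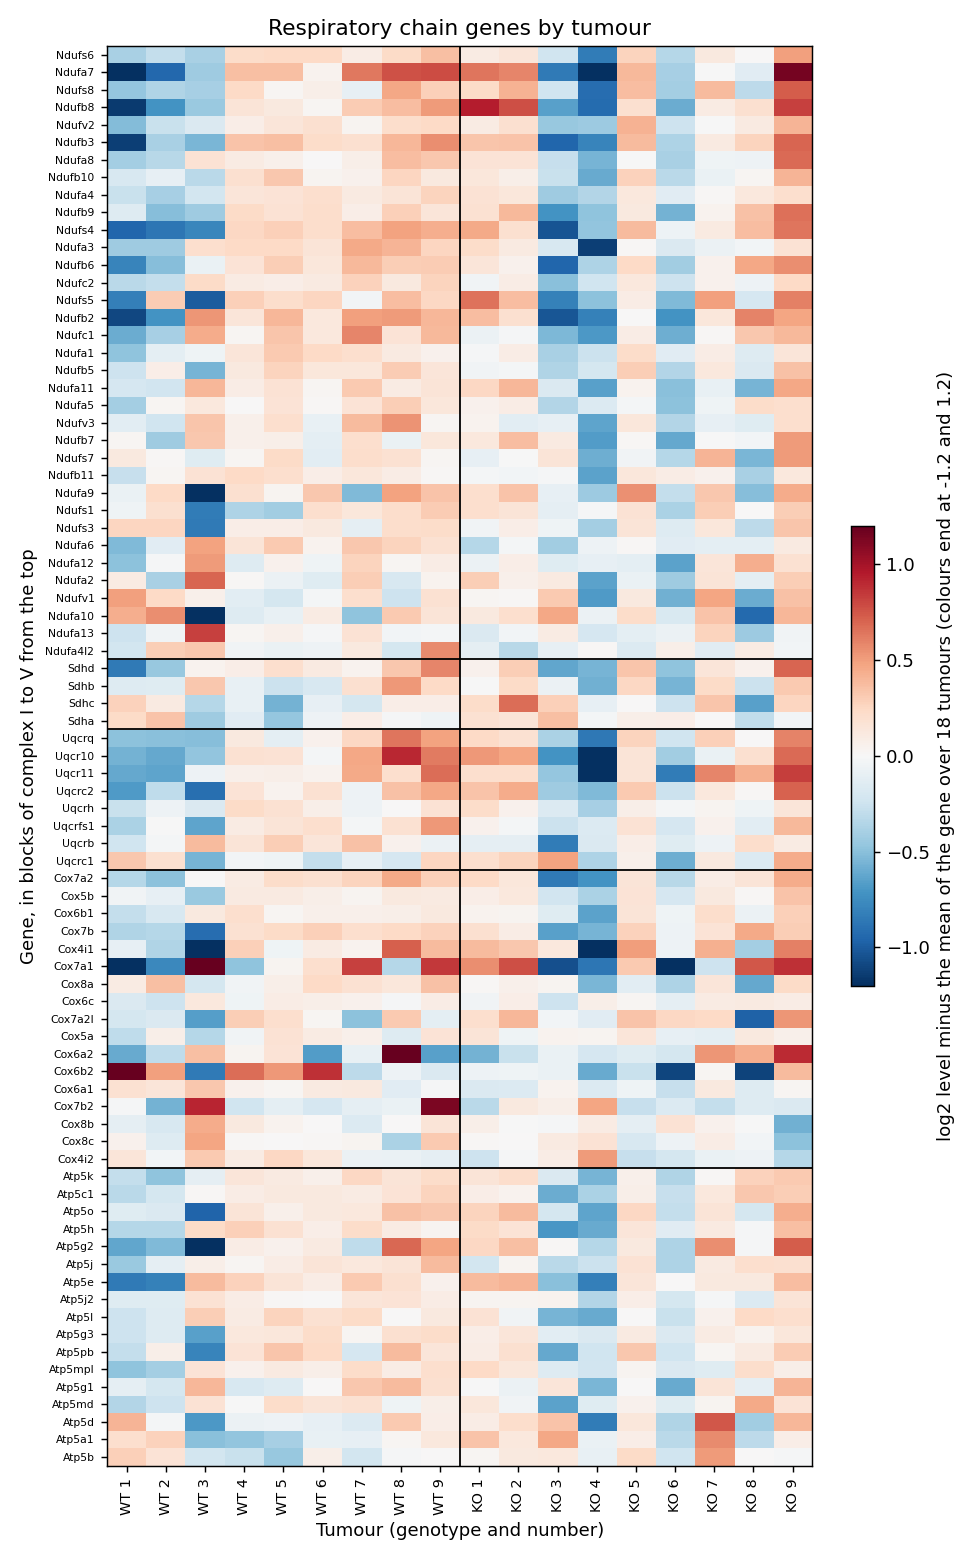
Log2 level of each of the 81 genes minus its mean over 18 tumours (colour, red above and blue below), with tumours in columns (WT 1 to 9, then KO 1 to 9) and genes in rows by complex I to V, sorted within each by their correlation with the other members. KO tumour 4 is blue over most rows, with 6 genes above their own median, and KO tumour 9 is red over most, with 74.

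The complexes moved together over tumours. The average of complex I correlated with that of complex III (r = 0.970, n = 18), complex V (r = 0.963) and complex IV (r = 0.948), and complexes III and V with each other (r = 0.975). These correlations were between 0.866 and 0.989 within either genotype for complexes I, III, IV and V. Complex II, with 4 genes, stood somewhat apart, with r from 0.690 to 0.732 to the other complexes. Its r ran from 0.383 to 0.591 within WT tumours and from 0.776 to 0.903 within KO tumours. In KO tumour 4 the averages were -0.52 for complex I, -0.31 for II, -0.66 for III, -0.29 for IV and -0.41 for V. In KO tumour 9 they were 0.40, 0.31, 0.49, 0.20 and 0.27. The complexes share arrays and scaling, so these are descriptions with no test.

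**Figure D3:**
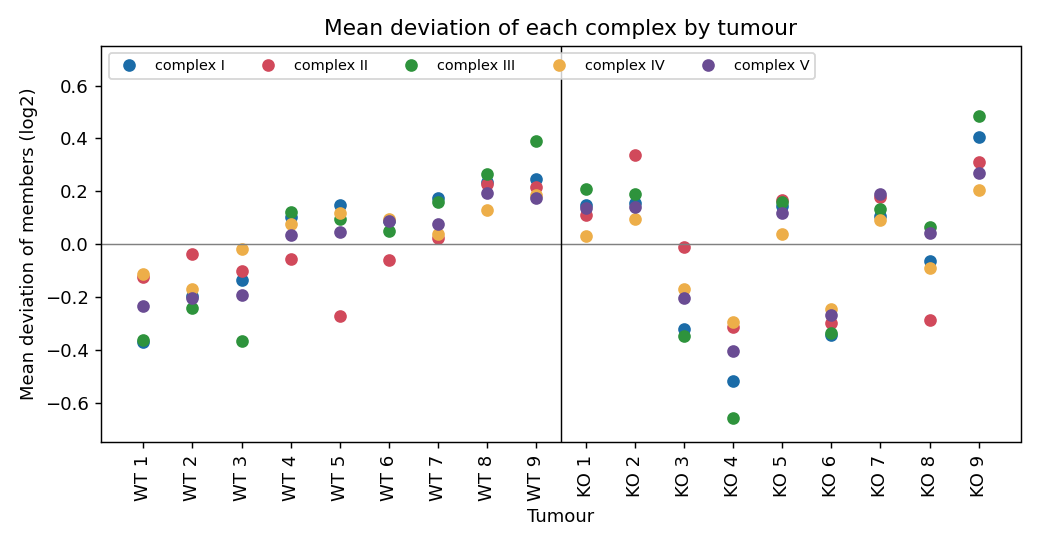
Mean deviation of the genes of each complex from their own means (log2, vertical axis) in each of 9 WT and 9 KO tumours (horizontal axis), with 1 point per complex and tumour. All 5 complexes lie below 0 in WT tumours 1 to 3 and KO tumours 3, 4 and 6. All 5 lie above 0 in WT tumours 7 to 9 and KO tumours 1, 2, 5, 7 and 9, and the WT and KO values overlap.

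Pairs of genes showed the same pattern after subtraction of the genotype means. The median r was 0.419 over the 3240 pairs of the 81 genes and 0.489 without WT tumour 3, against 0.018 over all pairs of the 19938 genes. Within complexes the median was 0.612 in complex III, 0.516 in complex I, 0.455 in complex V, 0.240 in complex II and 0.0952 in complex IV, and between complexes it was 0.404. After quantile normalization the order changed, with 0.251 in complex III, 0.259 in complex I, 0.106 in complex V, 0.198 in complex II and -0.031 in complex IV. The 7 restricted isoforms of complex IV and Ndufa4l2 had a median r of -0.0235 among themselves, and the other 73 genes one of 0.511. These 7 are among the 17 genes behind the value of complex IV, and no median without them was computed for it. Scaling mattered here: with quantile normalization the median over the 81 genes was 0.158, against 0.004 over all genes, and with each array's median subtracted it was 0.517.

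Single genes differed in how closely they followed the rest. The correlation with the average of the other members exceeded 0.8 in 27 genes and 0.5 in 57, and was below 0 in 7. After quantile normalization it exceeded 0.5 in 37 genes and was below 0 in 14, and with array medians subtracted the counts were 63 and 4. The genes that followed most closely were Ndufs6, an accessory subunit that holds zinc (r = 0.954), Ndufa7 and the core subunit Ndufs8 (both 0.947), and Uqcrq (0.939). They were chosen for this likeness after the values were seen. Ndufs6 ran from 11.08 through 11.69 to 11.84 in WT tumours and from 10.63 through 11.58 to 11.97 in KO tumours, and its 6 lowest tumours were those 6 in which the chain as a whole was low. The 7 below 0 were Cox4i2 (-0.655), Cox8c, Cox8b, Sdha (-0.203), Cox7b2, Ndufa4l2 and Cox6a1 (-0.0810). Of these, Sdha and Cox6a1 lay above the median gene, and their sign depended on scaling: with array medians subtracted r was 0.085 for Sdha and 0.221 for Cox6a1, after quantile normalization it was -0.590 and -0.318, and without WT tumour 3 it was -0.323 and 0.016.

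Several large core subunits followed the citric acid cycle genes more closely than the chain. The 16 core genes, namely the conserved core of complex I, Sdha and Sdhb, the Rieske protein and core proteins of complex III, and the F1 sector, had a median r of 0.539 with the other members and of 0.661 with the mean of 17 citric acid cycle and pyruvate dehydrogenase genes. For the 65 other genes the medians were 0.741 and 0.410. In 18 genes the second r was the higher, and 9 of them were among the 16 core genes. Ndufs1 had an r of 0.483 with the chain and 0.866 with the citric acid cycle genes, Ndufs3 0.464 and 0.823, Atp5a1 0.116 and 0.707, Atp5b 0.059 and 0.615, and Sdha -0.203 and 0.414. The subsets did not divide cleanly: the core gene Ndufs8 had 0.947 and 0.739, and the accessory genes Ndufa9 (0.536 and 0.831), Ndufa10 (0.134 and 0.720) and Cox8a (0.556 and 0.820) went with the citric acid cycle. The count was 21, with 10 core genes, without WT tumour 3, and 22, with 8 core genes, after quantile normalization. With that normalization both r were lower in the core genes named as closer to the citric acid cycle. Ndufs1 had -0.051 and 0.709, Ndufs3 -0.374 and 0.325, and Atp5a1 -0.318 and 0.554. Atp5b had -0.365 and 0.485, and Sdha -0.590 and 0.058. The medians above were computed without it. The split was noticed in the data and was not tested.

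**Figure D4:**
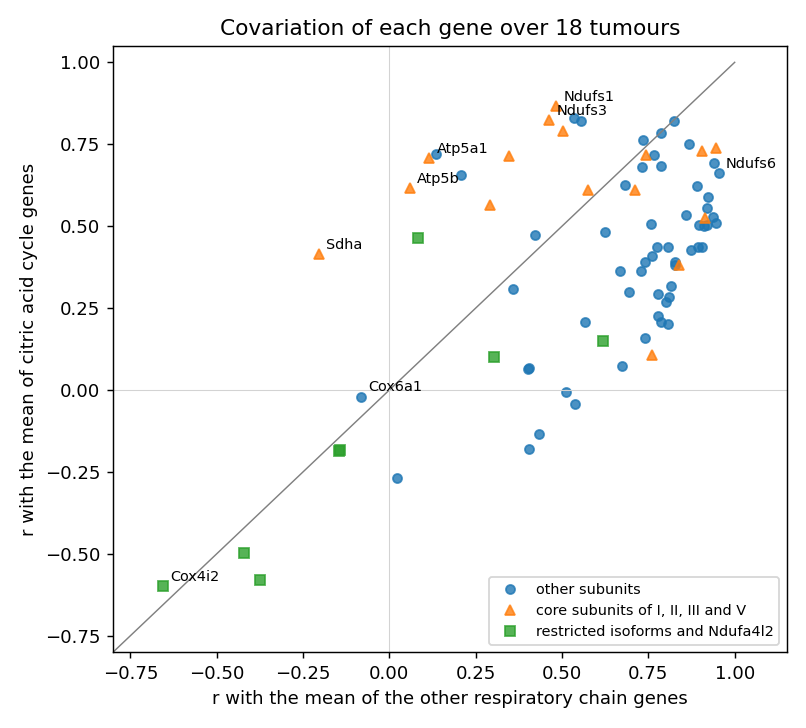
For each of the 81 genes, the correlation over 18 tumours with the mean of the other members (horizontal axis) and with the mean of 17 citric acid cycle and pyruvate dehydrogenase genes (vertical axis), after subtraction of genotype means. Triangles are the 16 core subunits, squares the restricted isoforms and Ndufa4l2, circles all others, and the grey line marks equal values. The 18 genes above the line include Atp5a1, Atp5b, Sdha and Ndufs1.

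Covariation was not limited to the chain. Over the 18 tumours its average correlated with that of the mitochondrial ribosome (r = 0.971), of assembly factors of complex IV (r = 0.948) and complex I (r = 0.945), and of coenzyme Q genes (r = 0.905), and less with the citric acid cycle (r = 0.627) and the regulators (r = 0.555). It also correlated with the averages of 57 cytosolic ribosomal protein genes (r = 0.885) and 39 proteasome genes (r = 0.865), lists added after the values were seen. With COX2 and ND3, from mitochondrial DNA, r was -0.551. The array median moved with it in the other direction (r = -0.780, and -0.855 without WT tumour 3): KO tumour 9 had the lowest array median, 5.14, and KO tumour 4 one of 5.33. The part of the array distribution in the tumour averages was not tested directly. After quantile normalization KO tumour 4 was still lowest, at -0.24, but WT tumour 3 took the highest place, at 0.20, ahead of KO tumour 9 at 0.15. On that scale r was 0.911 with the mitochondrial ribosome, 0.618 with the cytosolic ribosomal proteins, 0.565 with the proteasome and 0.135 with the citric acid cycle. The erythroid mean gave -0.0470 over all tumours, -0.688 within WT and 0.370 within KO tumours, the neutrophil mean 0.564 and the pan-B mean -0.213.

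**Figure D5:**
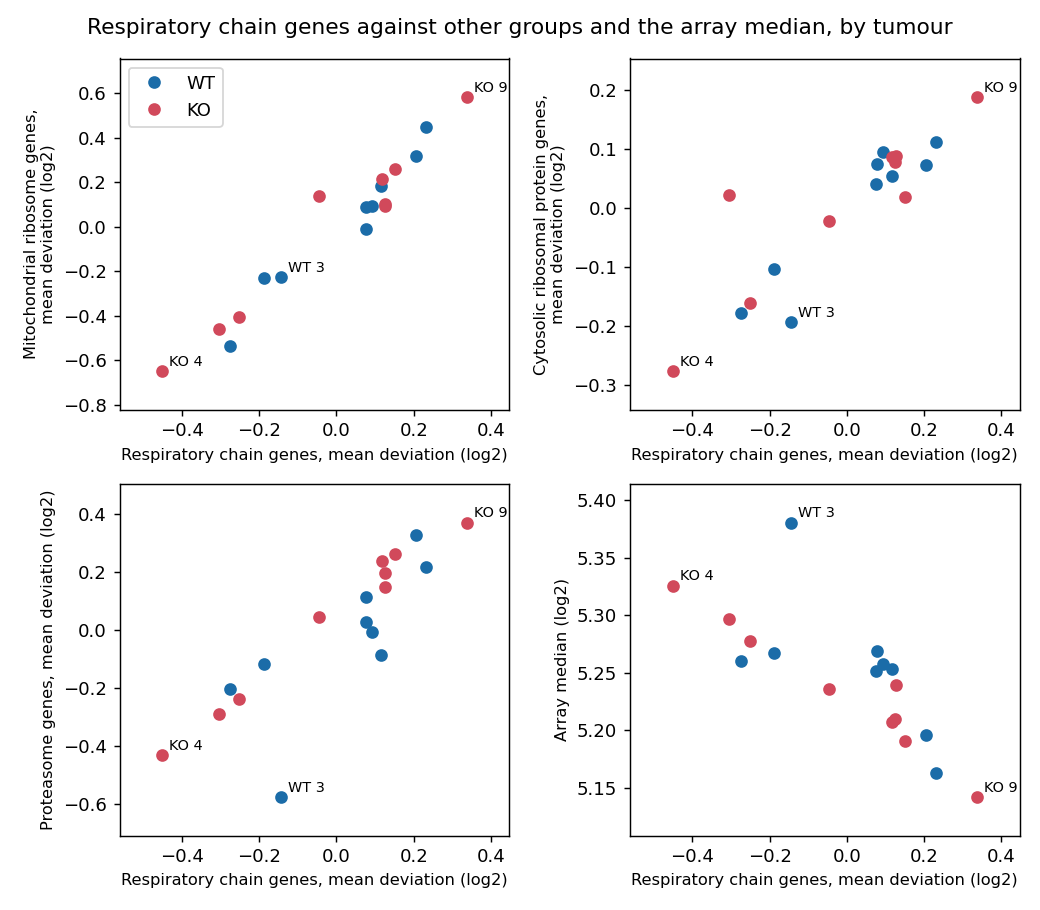
Mean deviation of the 81 respiratory chain genes (log2, horizontal axes) in each tumour against the mean deviation of mitochondrial ribosome, cytosolic ribosomal protein and proteasome genes, and against the array median (vertical axes, log2). Each point is 1 of 9 WT (blue) or 9 KO (red) tumours. The first 3 rise together with the chain (r = 0.971, 0.885 and 0.865), and the array median falls (r = -0.780).

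Promoters were compared because the genes of the chain varied together and are known targets of the factors NRF1, GABP and YY1. RefSeq start sites on GRCm38.p6 were held for 66 of the 81 genes, and the letters of each motif were searched on both strands in windows from 250 bases before to 50 bases after the start. The NRF1 letters GCGCANGCG were found in 19 of 66 (28.8%), against 10.5% of 15614 measured genes and 6.25% of all 32851 promoters in the table. The ETS letters CCGGAAG, which GABP reads, were found in 17 (25.8%), against 13.6% of measured genes and 8.86% of all promoters, and the YY1 letters AANATGGCG in 10 (15.2%), against 3.86% and 2.38%. The E-box CACGTG, read by MYC with MAX, was found in 9.09%, against 9.50% of measured genes and 7.15% of all promoters. The GC box GGGCGG was found in 40.9%, against 52.9% and 35.7%. At least 1 of the first 3 was present in 38 genes (57.6%), against 24.1% of measured genes. These matches describe letters and not binding sites.

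Matching letters were found in genes that followed the chain and in genes that did not. The r with the other members had a median of 0.768 and a range of -0.203 to 0.954 in the 38 genes with NRF1, ETS or YY1 letters, and a median of 0.718 and a range of -0.374 to 0.937 in the 28 without. The 250 bases before the start of 4 genes, all on the minus strand of GRCm38.p6, are printed as examples. They were picked, after the values were seen, for a high or low r and for holding the NRF1 letters, so they bear on no relation between letters and covariation. Ndufs6 (r = 0.954, chr13:73328483-73328732) and Sdhd (r = 0.919, chr9:50603850-50604099) followed the chain closely, whereas Cox6a1 (r = -0.0810, chr5:115348959-115349208) and Sdha (r = -0.203, chr13:74350241-74350490) did not. Capitals mark the NRF1 letters in all 4 and the ETS letters in Sdhd and Cox6a1, on either strand and read 5′ to 3′. In Cox6a1, 2 of the 4 matches overlap on opposite strands. The YY1 letters found for Ndufs6 in the longer window do not lie wholly within the printed bases.
Ndufs6: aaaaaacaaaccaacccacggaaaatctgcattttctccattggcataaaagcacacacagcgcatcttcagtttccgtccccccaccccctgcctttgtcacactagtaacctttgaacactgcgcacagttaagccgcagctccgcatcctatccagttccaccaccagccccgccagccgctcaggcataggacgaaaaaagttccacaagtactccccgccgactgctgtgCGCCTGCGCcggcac
Sdhd: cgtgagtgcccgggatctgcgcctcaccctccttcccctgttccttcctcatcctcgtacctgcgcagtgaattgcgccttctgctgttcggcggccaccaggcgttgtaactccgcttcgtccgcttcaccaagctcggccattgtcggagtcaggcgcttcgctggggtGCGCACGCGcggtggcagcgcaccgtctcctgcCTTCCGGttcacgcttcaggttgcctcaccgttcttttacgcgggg
Cox6a1: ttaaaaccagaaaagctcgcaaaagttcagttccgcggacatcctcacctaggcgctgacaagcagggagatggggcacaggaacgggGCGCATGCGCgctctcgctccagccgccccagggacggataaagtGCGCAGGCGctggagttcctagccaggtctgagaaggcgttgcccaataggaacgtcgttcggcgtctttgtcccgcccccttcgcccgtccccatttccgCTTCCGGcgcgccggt
Sdha: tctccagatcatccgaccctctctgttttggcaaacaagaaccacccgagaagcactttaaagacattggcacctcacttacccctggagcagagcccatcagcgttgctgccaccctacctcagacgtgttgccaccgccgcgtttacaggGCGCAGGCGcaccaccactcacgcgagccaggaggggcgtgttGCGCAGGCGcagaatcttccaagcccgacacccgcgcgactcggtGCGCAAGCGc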

How the data were processed

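Total RNA of 18 tumours, 9 per genotype, was hybridised to 1 Affymetrix array each. The deposited values were linear probe set intensities, for which the submitters' processing notes name RMA. Its version and the genome build were not stated there, nor were scan batches. Intensities were transformed to log2 with no pseudocount and no filter. Of 35556 probe sets, 21789 had 1 symbol in the platform annotation, 1621 several and 12146 none. For each of 19938 genes the probe set of highest mean was kept, and 105 probe sets gave the 81 members. Of these, 16 had several probe sets, and their other 24 probe sets included 2 with a difference of opposite sign, for Cox5b and Cox7b. All 81 matched RefSeq identifiers, and 0 symbols changed.

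KO and WT tumours were compared with limma 3.58.1 in R 4.3.3 (lmFit and eBayes, two-sided, no covariate), with Benjamini-Hochberg adjustment over all genes and a threshold of 0.05. No p was computed for a list. Correlations are Pearson's over 18 tumours. Genotype means were subtracted for pairs of genes and for the r of a gene with the other members or the citric acid cycle mean. They were kept for the erythroid mean and for averages of complexes and lists. The scripts were tested on simulated data. Python 3.11.15 with numpy 2.4.6 and pandas 2.3.3 was used otherwise. The number of arrays limits the precision. Named genes were the core subunits, the 3 genes with the smallest p and those with the highest and lowest SD in each complex, the restricted isoforms, and the 2 genes with the smallest p in each other list; others were named after their values were seen. The members and lists were chosen with earlier results of these data known. Alternatives covered probe set choice, scaling, dim genes, a block for the replicate number, each tumour left out, array weights, the variance model and marker covariates.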

Additional observations from a re-analysis of the deposited data

Results flagged for a closer look

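Of 162 sets of 9 tumours (81 genes in 2 genotypes), 16 held a tumour set apart from the other 8 by Dixon's criterion. For a single set chance gives this in about 1 of 20. The sets share arrays and their genes vary together, so the 16 cannot be set against that rate. The same count was not made over all genes. WT tumour 3 was low for Atp5o (9.30, with the next tumour at 10.09), Cox5b (11.38), Ndufa9 (8.73) and Ndufs3 (7.98), and high for Ndufa13 (7.84, with the next at 7.20). KO tumour 4 was low for Cox4i1 (9.54, with the next tumour at 10.68), Cox6b1 (11.99) and Ndufa3 (9.03), and high for Cox4i2 (5.58). WT tumour 1 was low for Ndufa5 (9.42) and Ndufb11 (11.13), and KO tumour 8 for Cox7a2l (9.81) and Ndufa10 (8.67). WT tumour 8 was high for Cox6a2 (8.21). KO tumour 9 was low for Cox8b (4.15), and KO tumour 3 for Uqcrb (9.85). So 9 of the 16 concerned WT tumour 3 or KO tumour 4, the array that stood apart and the tumour with the lowest levels over the chain.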

How the results depend on the processing

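The count of members past the adjusted threshold was 0 under every alternative run, and the smallest adjusted p over 15 named members and 27 other settings was 0.198. The count at an unadjusted p below 0.05 and lower in KO tumours was 4; it was 0 with array medians subtracted and 1 with trend and robust variance, and ran from 0 to 5 over left-out tumours, with 0 without KO tumour 6 and 2 without WT tumour 3, 4, 6, 7, 8 or 9 or KO tumour 1, 4 or 8. The count higher in KO tumours was 0; it was 3 with array weights and ran from 0 to 1 over left-out tumours, with 1 without KO tumour 8. Over left-out tumours the median difference ran from -0.135 to -0.010 in complex I, from 0.010 to 0.087 in II, from -0.067 to 0.071 in III, from -0.098 to 0.007 in IV, from -0.056 to 0.030 in V and from -0.103 to 0.008 over all members. Among the values of named members under alternatives, 403 kept their direction and their side of the threshold and 2 reversed: Sdha to -0.058 with the pan-B covariate and Sdhb to 0.079 with array weights. With quantile normalization the median SD over KO tumours was 0.263 in complex I, 0.265 in III, 0.213 in V and 0.238 over all members, and the median correlation of pairs was 0.158; the latter ran from 0.368 to 0.489 over left-out tumours. With dim genes left out the median SD of complex IV in KO tumours was 0.386. The cause of these moves was not tested.

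With the replicate number as a block, 0 members passed the adjusted threshold, 4 were lower and 0 higher at an unadjusted p below 0.05. The numbers only name tumours: same-numbered deviations correlated from -0.23 to 0.49, 4 of 9 over 0.1, and 2 of 18 tumours correlated best with their own number.

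The design of 9 whole tumours per genotype and the dim isoforms limit precision. Transcript levels do not measure assembled complexes or respiration.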
